A study of Mus musculus with 62 samples.

Results

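The genes described are 10 mouse genes of the amino acid response run by the transcription factor ATF4, taken by name from a table of 19112 gene rows. They comprise the transcription factors Atf4, Atf5 and Ddit3, the pseudokinase gene Trib3, the glutathione-degrading enzyme Chac1, the mTORC1 inhibitors Sesn2 and Ddit4, and the amino acid synthesis enzymes Asns, Psat1 and Phgdh. All 10 had a row. They were read in KPC1199-EGFP, a mouse pancreatic cancer line with EGFP on the C57BL/6 background, grown as an untreated adherent culture at passage 9. Each library came from 1 cell, isolated and amplified on the Fluidigm C1 microfluidic system after trypsin. The labels describe 1 culture of 1 line in serum-supplemented DMEM. They give no second group, so levels and their spread over cells are described, and no comparison between conditions could be made.

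Values are given for the 50 of 62 libraries in which ERCC spike-ins, synthetic RNAs added to each reaction, took under 20% of all counts. The highest share inside that limit was 1.83% and the lowest outside it 22.3%. The 50 libraries held 2153900 to 12868800 gene counts (median 7194660) and 6832 to 11068 detected genes (median 8830.5). Of 5 epithelial markers, 4 were above 0 in 25 or more of them, and the summed level of the 5 ran from 2619 to 24017 CPM (counts per 1000000 gene counts). Among 6 immune, 6 fibroblast, 5 endothelial, 4 acinar, 1 islet and 3 red blood cell markers with a row, 0 reached 1 CPM in 25 or more of the 50 libraries. The fibroblast list had 1 gene above 0 in 25 or more, and its summed level had a median of 0.229 CPM. The highest summed level of any of these lists in a library was 215 CPM, for the endothelial list, of which 4 of 5 genes were at 0 throughout.

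When amino acids run short or proteins misfold, kinases phosphorylate the initiation factor eIF2. General protein synthesis then falls while translation of the Atf4 mRNA rises, so that ATF4 protein is controlled to a large extent after transcription. ATF4 pairs with other leucine zipper proteins, binds C/EBP-ATF composite elements in DNA, and raises genes for amino acid synthesis and uptake and for the charging of tRNAs. Under longer stress it also raises genes tied to feedback and cell death, among them Ddit3 (which encodes CHOP), Trib3 and Chac1. Many tumour cells depend on serine made by Phgdh and Psat1 and on asparagine made by Asns.

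The composite element has a core that can be written TGATGNAA, with N for any base. Promoters of 300 bases (250 before and 50 after the start of each transcript, RefSeq, build GRCm38.p6) were found for all 10 genes and searched for it on both strands, as the only motif. It occurred in 3 of their 12 promoters, those of Asns, Chac1 and Trib3, and in 3.97% of all 32851 promoters. The 30 bases around each match are shown because these are the genes whose promoters hold the element, with the match in capitals and the gene's own strand printed. In Asns the match lies at bases -23 to -16 from the RefSeq start and reads along the gene (chr6:7693214-7693243, minus strand). In Chac1 it lies at bases -193 to -186 from the start and reads on the opposite strand (chr2:119351038-119351067, plus strand). In Trib3 it lies at bases 15 to 22 after the start, again on the opposite strand (chr2:152344028-152344057, minus strand). A match describes letters and is no evidence of binding in these cells.
Asns: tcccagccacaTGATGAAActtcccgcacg
Chac1: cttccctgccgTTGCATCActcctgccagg
Trib3: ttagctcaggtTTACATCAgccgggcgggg

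The 10 genes fell into a set found in nearly every cell and a set found in some. Phgdh, Psat1 and Asns were above 0 in 50 of 50 libraries (exact Clopper-Pearson 95% interval 92.9% to 100%) and Atf4 in 49. The other 6 genes were above 0 in 6 to 36 libraries. Of the 10, 6 were detected (above 0) in 25 or more of the 50 libraries, against 48.6% of all gene rows. With detection set at 1 CPM the count was 4, namely Phgdh, Psat1, Asns and Atf4. At that threshold 8018 of the 19112 gene rows were detected in 25 or more libraries. The members' median of mean log2(CPM + 1) was 2.05, and that of the 12012 genes above 0 in at least 10 of the 50 libraries was 3.14. For the 9 members that passed the same filter it was 2.12. All intervals cover the sampling of cells of this culture alone.

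**Figure D1:**
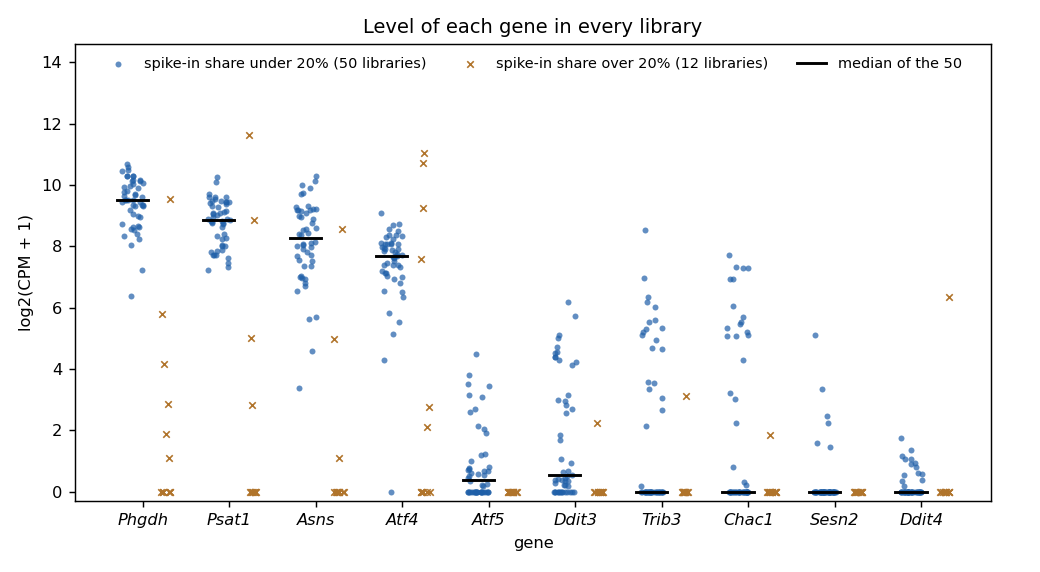
Level of each gene as log2(CPM + 1), 1 point per library; dots are the 50 libraries low in spike-ins, crosses the other 12, and bars the median of the 50. Phgdh, Psat1 and Asns are above 0 in all 50, Atf4 in 49, and the medians of Trib3, Chac1, Sesn2 and Ddit4 are 0.

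Serine and asparagine synthesis enzymes were the highest members. Phgdh, the enzyme that commits a glycolytic intermediate to serine synthesis, ranged from 81.9 to 1631 CPM with a median of 721, and its mean log2(CPM + 1) was 9.40 ± 0.86 (SD, n = 50 cells). The lowest value belonged to library 19 and the highest to library 52. Psat1, the aminotransferase that follows Phgdh, ranged from 148 to 1219 CPM with a median of 464 (8.76 ± 0.76). Its SD was the lowest of the 4 widely detected members, but its quartiles differed 2.51-fold, more than those of Phgdh (2.15) and Atf4 (1.93). Asns, which makes asparagine from aspartate, ranged from 9.39 to 1251 CPM with a median of 308 (8.11 ± 1.39). The quartiles of Asns differed 3.42-fold, and its SD was also above those of both serine enzymes. Of the tested genes with a mean within 0.5 of theirs on the log2 scale, 93.8% of 178 had a lower SD than Phgdh, 91.2% of 498 than Asns and 81.8% of 302 than Psat1.

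Atf4 itself ranged from 0 to 545 CPM with a median of 207 (7.38 ± 1.41). It was at 0 in library 12 alone and at 18.7 CPM or more in the other 49. In library 12 Phgdh stood at 1404 CPM and Psat1 at 623, inside the range of the other libraries. Over all 62 libraries, 70.9% of the 55 Atf4 values above 0 were not whole numbers within 1e-06, and 60.7% of the 56 Phgdh values. Such fractions arise where the quantifier divides reads among targets they match equally, so the levels of these genes depend on that division. The share was 41.4% for Atf5, 5.41% for Ddit3, 1.85% for Psat1 and 0% for the remaining 5 members. Reads from the opposite strand of a gene could not be told apart, since strand use is not given in the sources used here.

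Trib3 and Chac1 were found in under 50% of the cells, at levels that ran high where present. Trib3, a pseudokinase that restrains AKT and ATF4 output, was above 0 in 21 libraries (42%, interval 28.2% to 56.8%). Its median among those 21 was 33.9 CPM, and its maximum was 366 CPM, in library 52. The next highest value of Trib3 was 124 CPM. Chac1, a gamma-glutamylcyclotransferase that breaks down glutathione, was above 0 in 22 libraries (44%, interval 29.99% to 58.7%), with a median of 37.9 CPM among them. Its maximum was 209 CPM, also in library 52. Where detected, each gene was at 10 CPM or more in 16 libraries and under 1 CPM in few, 1 for Trib3 and 3 for Chac1. Of the tested genes with a similar mean, 97.1% of 1799 had a lower SD than Trib3 and 99.3% of 1760 a lower SD than Chac1. The same share was 81.0% of 780 for Atf4. It was lower for Ddit3 (34.8% of 1866), Atf5 (30.6% of 2023) and Ddit4 (38.1% of 1611). At 1 CPM or more, 12 libraries held both Trib3 and Chac1, 7 Chac1 alone, 8 Trib3 alone and 23 neither.

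Ddit3, Atf5, Ddit4 and Sesn2 had the lowest mean levels per transcript length. Ddit3 overlapped there with Trib3 and Chac1, and its median per kilobase was higher (0.497 CPM, against 0 for both). Ddit3, whose product CHOP dimerises with C/EBP proteins, was above 0 in 36 libraries (72%, interval 57.5% to 83.8%), of which 21 were at 1 CPM or more, 12 at 10 CPM or more and 15 under 1 CPM. Its median was 0.443 CPM and its maximum 70.9 CPM, in library 58. Atf5, a relative of ATF4 that is also regulated by translation, was above 0 in 29 libraries, 15 of them under 1 CPM, and its maximum was 21.2 CPM. Ddit4 (REDD1), an inhibitor of mTORC1 acting through the TSC complex, was above 0 in 14 libraries and never exceeded 2.34 CPM. Sesn2, a leucine-binding protein that restrains mTORC1, was above 0 in 6 libraries (12%, interval 4.53% to 24.3%), with a maximum of 33.4 CPM in library 11. When every library was thinned to 2000000 gene counts, Ddit3 was found in 30, Atf5 in 22, Ddit4 in 9, Chac1 in 21, Trib3 in 21 and Sesn2 in 6.

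Few libraries held many of the low members. Counting Atf5, Ddit3, Ddit4, Trib3, Chac1 and Sesn2 at 1 CPM or more, 12 libraries held 0 of the 6, 16 held 1, 7 held 2, 7 held 3, 6 held 4, 2 held 5 and 0 held all 6. Sesn2 overlapped with Trib3 in 5 of its 6 libraries and with Chac1 in 5. Over the 50 libraries Trib3 was at 1 CPM or more in 20 and Chac1 in 19. Ddit4 overlapped with Sesn2 in 0 libraries at that level. With Ddit4 in 5 libraries and Sesn2 in 6, that count carries little information.

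Levels of different genes were compared per kilobase of transcript, using GENCODE lengths of records shared with RefSeq. On this scale Phgdh had the highest mean, 413 ± 198 CPM per kilobase (SD, n = 50 cells). Psat1 (200 ± 98.1) and Asns (195 ± 148) followed and did not differ beyond their spread. Atf4 stood at 122 ± 64.1. Its mean lay well above those of Chac1 (16.4 ± 31.2), Trib3 (10.6 ± 27.7) and Ddit3 (8.99 ± 16.3), which overlapped with each other. The range of Atf4 over cells overlapped with theirs, since Atf4 was at 0 in library 12. Atf5 averaged 1.13, Sesn2 0.314 and Ddit4 0.137 CPM per kilobase. Phgdh stood above Psat1 and Asns in mean, but their ranges over cells overlapped.

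The 12 spike-in-rich libraries held few members. Atf4 and Phgdh were above 0 in 6 of 12, Psat1 in 4, Asns in 3, Ddit3, Ddit4, Trib3 and Chac1 in 1 each, and Atf5 and Sesn2 in 0. These libraries had 112196 to 1133750 gene counts and a median of 1940 detected genes, so absence of a low member there carries little information. Library 56, with 1133750 gene counts and 5966 detected genes, had Atf4 at 1701 CPM and Phgdh at 2.65. Psat1 and Asns were at 0 there, while their lowest values in the 50 were 148 and 9.39 CPM. The reason was not tested. Library 43, with 9041 detected genes, held all 4 widely detected members: Phgdh stood at 745 CPM, Psat1 at 465, Asns at 378 and Atf4 at 190, near the medians of the 50. High values occurred in shallow libraries as well, such as 2134 CPM of Atf4 in library 34 and 3169 CPM of Psat1 in library 23.

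The next question was whether the members rose and fell together from cell to cell. Pearson r was computed on log2(CPM + 1) over the 50 libraries, for the 9 members above 0 in at least 10 of them; Sesn2 fell short. All correlations are descriptions of cells of 1 culture that share their library steps. The median over the 36 member pairs was 0.221, and over all pairs of tested genes it was 0.0240. An r of at least 0.3, a mark chosen after the values were seen, was reached by 10 of 36 member pairs, against 3.58% of all pairs of tested genes. Among genes above 0 in every library 5.42% of pairs reached it.

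**Figure D2:**
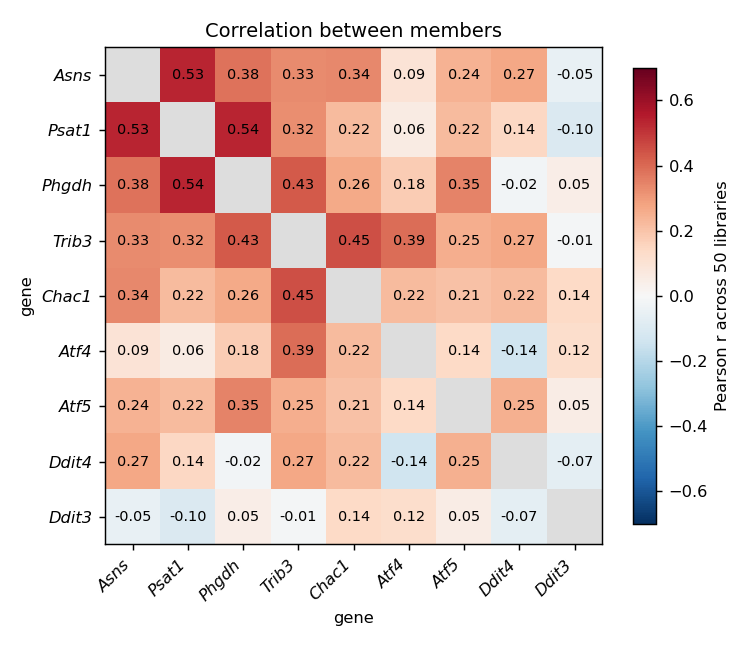
Pearson r between members over 50 libraries, with each value printed in its cell. Asns, Psat1 and Phgdh form a block with r between 0.38 and 0.54, Trib3 has r of 0.32 or more with each of them, and the Ddit3 row lies between -0.10 and 0.14.

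The pairs with the highest r were pairs of synthesis enzymes, Psat1 with Phgdh and Asns with Psat1. Psat1 and Phgdh, adjacent steps of serine synthesis, had r = 0.54 and Spearman rho = 0.49. Asns and Psat1 had r = 0.53 and rho = 0.60, although asparagine and serine synthesis are separate pathways. Asns and Phgdh had r = 0.38 and rho = 0.43. Without the 2 libraries farthest from the median of the gene named first in each pair, these r values were 0.50, 0.61 and 0.38.

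Trib3 reached the mark with Chac1, Atf4 and all 3 enzymes, and Chac1 with Trib3 and Asns. The r of Trib3 with Chac1 was 0.45 (rho = 0.50), and 0.44 without the 2 farthest libraries. Trib3 had r = 0.43 with Phgdh, 0.33 with Asns and 0.32 with Psat1. Without the 2 libraries farthest from the median of Trib3, these were 0.40, 0.24 and 0.22, so those with Asns and Psat1 fell below the mark. Chac1 had r = 0.34 with Asns, 0.26 with Phgdh and 0.22 with Psat1. Trib3 was above 0 in 21 of the 50 libraries and Chac1 in 22, so these values include which cells held them at all. Libraries 52 and 33 had the highest mean standardised level of the 9 members. In library 52 Trib3 stood at 366 CPM, Chac1 at 209, Asns at 1131 and Phgdh at 1631. Without both, the median r over member pairs was 0.103, against 0.221 over the 50 libraries. The r of Trib3 and Chac1 was then 0.34, against 0.45, and that of Psat1 and Phgdh 0.51, against 0.54. Leaving out libraries chosen by the members' own level tends to lower r between members. How much of the fall this made was not tested.

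Atf4 mRNA was tied less evenly to the other members. Its r was 0.39 with Trib3, 0.22 with Chac1, 0.18 with Phgdh, 0.09 with Asns and 0.06 with Psat1. It was 0.14 with Atf5, 0.12 with Ddit3 and -0.14 with Ddit4. In library 12 Atf4 was at 0 and Phgdh stood at 1404 CPM. Without that library, r of Atf4 was 0.48 with Phgdh, 0.47 with Trib3, 0.22 with Chac1, 0.20 with Psat1 and 0.07 with Asns (49 libraries). With Atf5, Ddit3 and Ddit4 it was then 0.20, 0.04 and -0.30. By rank, Atf4 had rho = 0.52 with Trib3, 0.43 with Chac1 and 0.43 with Phgdh, and rho = 0.21 with Asns and 0.15 with Psat1.

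Ddit3 had the lowest r with the mean of the other members. Spearman rho of Ddit3 with each of them lay between 0.03 (Psat1) and 0.20 (Atf5). Its r with each of them lay between -0.10 and 0.14, with a median of 0.0178 over 8 pairs. Its r with the mean of the other members was 0.03. For comparison, r with the mean of the other members was 0.58 for Trib3, 0.51 for Phgdh, 0.50 for Asns, 0.48 for Chac1, 0.45 for Psat1, 0.39 for Atf5, 0.24 for Atf4 and 0.21 for Ddit4. Ddit3 was at 1 CPM or more in 21 libraries, Trib3 in 20, Chac1 in 19, Atf5 in 14 and Ddit4 in 5, so the values of Ddit4 rest on few cells.

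**Figure D3:**
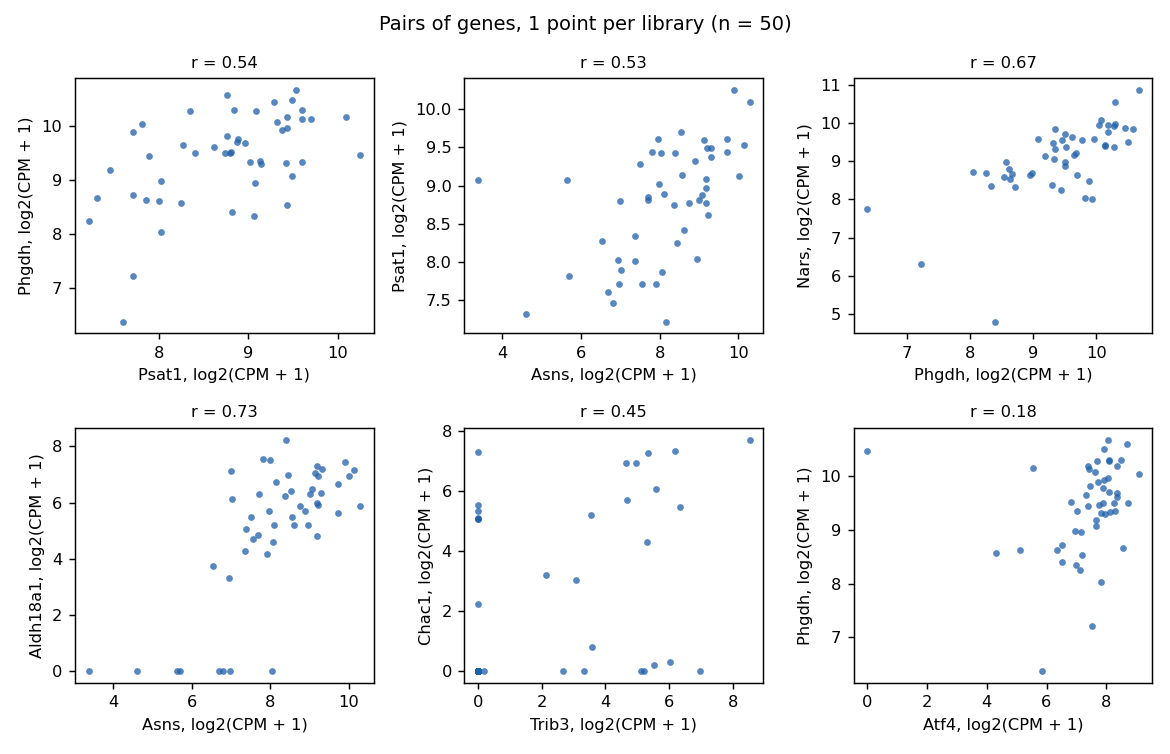
Level of pairs of genes in 50 libraries, both axes as log2(CPM + 1), 1 point per library, with r above each panel. Psat1 with Phgdh, Asns with Psat1 and Phgdh with Nars slope upward; several libraries with low Asns have Aldh18a1 at 0; Trib3 and Chac1 have many libraries at 0; and library 12, with Atf4 at 0, lies far left of the others in the Atf4 and Phgdh panel.

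Other genes of the pathway were then set against a member score, the mean standardised level of the 9 members in each library. Of 49 wider ATF4 target genes in 5 lists, 48 had a row, 42 were detected in 25 or more libraries and 46 were tested. Their median r with the score was 0.31, against 0.05002 for the 12003 tested genes outside the members. An r of at least 0.3 was found for 25 of the 46, or 54.3%, against 5.89% of the tested genes. Among the 4695 genes above 0 in at least 45 libraries 7.03% reached it. The score had r = 0.27 with the number of detected genes and 0.28 with the log2 ratio of gene to spike-in counts. It had r = -0.31 with an index of transcript length, the mean level of genes with transcripts under 1000 bases minus that of genes over 3000. With detected genes regressed out, the median of the 46 was 0.29 and that of all genes 0.00772; with the length index regressed out they were 0.27 and 0.00950.

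Aminoacyl-tRNA synthetases, which load amino acids onto tRNAs, gave the highest list median. All 12 synthetases listed for the ATF4 program were detected in 25 or more libraries, and 10 of 12 had r of at least 0.3 with the score (median 0.42). Cars, for cysteine, had r = 0.59 and a level of 5.75 ± 2.12 on the log2(CPM + 1) scale. Nars, for asparagine, had r = 0.58 at 9.05 ± 0.99, and Sars, for serine, r = 0.54 at 8.19 ± 0.64. Eprs, at 8.15 ± 0.59, had r = 0.31. The 8 remaining cytosolic synthetases had a median r of 0.25, and 2 of 8 reached 0.3, Hars at 0.36 and Farsb at 0.31. The difference between the lists was not tested, and over all 62 libraries their order was the reverse (0.661 and 0.718). Single members carried part of this: Phgdh had r = 0.70 with Lars, 0.67 with Nars and 0.66 with Gars (0.59, 0.60 and 0.56 without the 2 libraries farthest from the median of Phgdh).

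Enzymes of serine, glycine, proline and folate-linked metabolism followed. Of 12 listed, 9 were detected in 25 or more libraries, 11 were tested and 7 reached r of 0.3 (median 0.34). Psph, which completes serine synthesis after Psat1, had r = 0.57 at 6.27 ± 1.66, and Shmt2, which passes the serine carbon to mitochondrial folate, had r = 0.56 at 6.22 ± 1.89. Mthfd2, the next mitochondrial folate enzyme, had r = 0.49 at 6.42 ± 2.34. Asns was closest among listed genes to Aldh18a1, which begins proline synthesis (r = 0.73, rho = 0.63, and 0.66 without the 2 farthest libraries). Aldh18a1 was above 0 in 42 libraries, and those without it lay mostly at the low end of Asns, as the plot of gene pairs shows. Asns also had r = 0.56 with Mthfd2 and 0.56 with Pycr1, the last proline enzyme. Psat1 had r = 0.59 with Shmt2 and 0.56 with Pycr1.

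Amino acid transporters and partner transcription factors were tied in part. Of 9 transporters, 7 were detected in 25 or more libraries, and 5 of 8 tested reached 0.3 (median 0.33). Slc3a2, the shared heavy chain of several transporters, had r = 0.54 at 7.70 ± 1.16, and the cystine importer Slc7a11 had r = 0.47 at 5.25 ± 2.22. Slc38a2, a glutamine carrier, was high at 6.97 ± 1.14 but had r = 0.10. All 6 transcription factors of the list were detected in 25 or more libraries, and 3 of 6 reached 0.3 (median 0.29). Cebpg, a dimer partner of ATF4, had r = 0.48 at 4.96 ± 1.58, and the stress factor Nupr1 r = 0.47 at 6.55 ± 1.45. Atf3, at 5.93 ± 2.87, had r = 0.19.

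The secreted and stress outputs were less tied to the score, with 0 of 9 tested at 0.3 and a median of 0.10. Map1lc3b, an autophagosome protein, was high at 9.36 ± 0.68 with r = 0.23, and Sqstm1 stood at 8.37 ± 0.90 with r = 0.08. Of the 10 genes for eIF2 kinases, phosphatase subunits and translation, 2 reached the mark. Eif4ebp1, a translation repressor and known ATF4 target, had r = 0.55 at 8.46 ± 0.70, and the phosphatase subunit Ppp1r15b had r = 0.43. Eif2s1, the eIF2 subunit that is phosphorylated, had r = 0.04 at 8.92 ± 0.62, and the list median was 0.0424. These are mRNA levels and do not report phosphorylation.

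**Figure D4:**
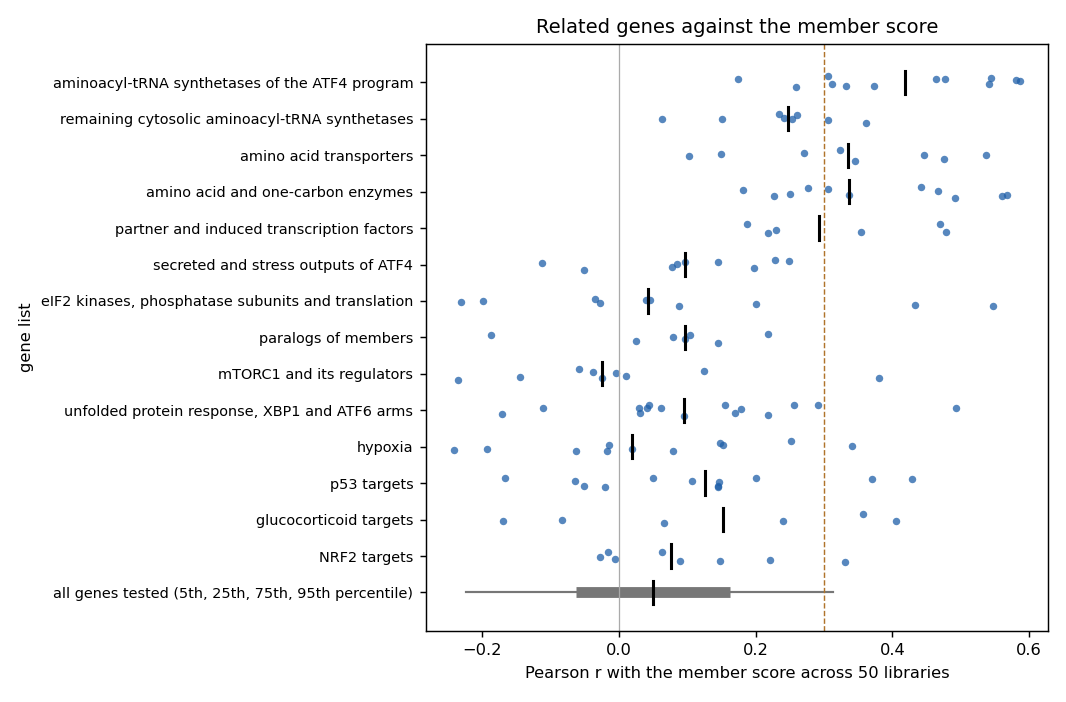
Pearson r of each tested list gene with the member score over 50 libraries, 1 dot per gene, with the list median as a bar and the mark of 0.3 dashed; the lowest line shows all tested genes by percentiles, the box from the 25th to the 75th and the line from the 5th to the 95th. Dots of the synthetases of the ATF4 program lie from 0.17 to 0.59, while the medians of the lists for the unfolded protein response, hypoxia, p53 and NRF2 lie between 0.0186 and 0.13.

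Lists for other stress programs had medians between -0.0252 and 0.15, against 0.05002 for the tested genes outside the members, of which 5.89% reached the mark. The XBP1 and ATF6 arms of the unfolded protein response had a median r of 0.0945 (0.18 within blocks of 12 label numbers) with 1 of 15 genes at the mark, although all 15 were detected in 25 or more libraries. The chaperones Hsp90b1 (9.24 ± 0.68), Hspa5 (9.19 ± 0.75) and Calr (8.74 ± 0.71) were high, with r of 0.04, 0.04 and 0.06. Herpud1, an endoplasmic reticulum degradation factor, was the gene at the mark, with r = 0.49 with the score and 0.55 with Atf4. The hypoxia list had a median r of 0.0186 (1 of 11 at the mark, Slc2a1 at 0.34). The p53 list had 0.13 (2 of 12, with Bax at 0.43), the glucocorticoid list 0.15 (2 of 6, with Klf9 at 0.40) and the NRF2 list 0.0761 (1 of 8, Srxn1 at 0.33). For mTORC1 and its regulators the median was -0.0252 (1 of 9, Tsc1 at 0.38). Ddit4, which hypoxia, p53 and glucocorticoids also induce in other settings, had a median r of its own of 0.15 with the hypoxia list, -0.02 with the p53 list and -0.00317 with the glucocorticoid list, against -0.0166 with all tested genes outside the members. At r of 0.3 or more with Ddit4 stood 2 of 11 hypoxia, 2 of 12 p53 and 0 of 6 glucocorticoid genes. The share over all tested genes outside the members was 2.02%. Among p53 genes the highest r was 0.32, for Cdkn1a. Among hypoxia genes r of Ddit4 was 0.44 with Ankrd37, 0.29 with Bnip3, 0.02 with Slc2a1 and -0.04 with Higd1a. The level of Ddit4 never exceeded 2.34 CPM. Paralogs of the members had a median of 0.10 with 0 of 7 at the mark. Chac2, the constitutive relative of Chac1, was above 0 in 46 libraries at 5.51 ± 1.96 and had r = 0.10.

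Outside the lists, the genes closest to each enzyme were named by rule. For Asns they were Pck2, the mitochondrial enzyme that makes phosphoenolpyruvate (r = 0.63, rho = 0.60), and the sterol synthesis genes Hmgcs1 (r = 0.61, rho = 0.55) and Dhcr7 (r = 0.61, rho = 0.50). Pck2 was also the closest to Psat1 (r = 0.62, rho = 0.67), followed by Msto1 at 0.61 and the polyamine enzyme Srm at 0.60. For Phgdh they were the proteasome subunit Psmd2 and the translation termination factor Gspt1, both at 0.66, and Csrp1 at 0.63. Each likeness was measured over the 50 libraries. Without the 2 farthest libraries, r of Pck2 was 0.54 with Asns and 0.55 with Psat1, and r of Psmd2 and Gspt1 with Phgdh was 0.50 and 0.46. It was 0.50 for both Hmgcs1 and Dhcr7 with Asns. With Psat1 it was 0.51 for Msto1 and 0.48 for Srm, and with Phgdh 0.46 for Csrp1. The 10 genes closest to the whole score were led by Hax1 and Rnf2, both at 0.55, and Tra2b at 0.52.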

How the data were processed

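Estimated counts per gene symbol for 62 single-cell libraries form the authors' deposited table. Per the submitters' processing notes, kallisto was used, with the mouse build mm9. Neither the annotation nor the step from transcripts to genes is given in the sources used here. Spike-ins (65 rows) did not enter the library sizes. CPM was computed from the deposited estimated counts with the total over gene rows as the divisor. The counts were used unrounded on the scale log2(CPM + 1), except for thinning, where they were rounded. Coordinates and lengths come from RefSeq GRCm38.p6 and GENCODE vM21, another build than the table. Lengths were found for 96.5% of the 12012 tested genes. No doublet caller was run and no count model was fitted, since the labels give 1 group. Computations used python 3.11.15, pandas 2.3.3 and scipy 1.17.1, and were tested on simulated counts with a planted factor.

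The members and the 14 lists of related genes were chosen with earlier results of these data known. Genes named were all members, from each list the 3 of highest mean and the 2 of highest r with the score, outside the lists the 10 highest and 5 lowest by r with the score, and the 3 closest to each member. Other genes named (Lars, Gars, Aldh18a1, Pycr1, Cdkn1a) were chosen after their values were seen. Alternatives were a pseudocount of 0.1, median-of-ratios scaling over 2179 genes, a sum without ribosomal genes, ranks, regression on detected genes, blocks of 12 label numbers, all 62 libraries, thinning and stricter filters. Leaving out libraries 52 and 33, or library 12, the length index and a score of 3 enzymes were added after the data were seen.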

Additional observations from a re-analysis of the deposited data

How the results depend on the processing

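Of the 10 members, 4 were above 0 in at least 50% of libraries with detection at 1 CPM and 5 over all 62 libraries or after thinning, against 6. Of the 19112 gene rows, 8018 passed with detection at 1 CPM. With a pseudocount of 0.1 the median of the members' mean levels moved from 2.05 to 0.175 on the log2 scale, while the median shift of all tested genes was -0.92. The wider ATF4 targets had a median r with the score of 0.595 over all 62 libraries, where all genes had 0.351 and the remaining synthetases (0.718) lay above those of the ATF4 program (0.661); the cause was not tested. Under the other alternatives that value ran from 0.26 to 0.33. The median r between members ran from 0.103, without libraries 52 and 33, to 0.299, over all 62. Libraries 52 and 33 were chosen by the members' own level, which tends to lower r, and the size of that effect was not tested. The median r was 0.140 for the members above 0 in at least 25 libraries. Within blocks of 12 label numbers it was 0.199. No paired analysis was possible because the labels give 1 group. Depth bears on detection of Atf5, Ddit3 and Ddit4, which thinning moved from 29 to 22, 36 to 30 and 14 to 9 libraries, and less on Trib3, Chac1 and Sesn2.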

Other observations

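The genes lowest against the member score were Ubl5 (r = -0.56), the respiratory chain assembly factor Uqcc3 (-0.54), X2010107E04Rik (-0.53), the complex I subunit Ndufb7 (-0.53) and the ATP synthase subunit Atp5j2 (-0.51). Without the 2 libraries farthest from the median score, r was -0.56 for Ubl5, -0.34 for Uqcc3, -0.35 for X2010107E04Rik, -0.37 for Ndufb7 and -0.46 for Atp5j2. For the 4 of them with a known length, transcripts ranged from 623 bases for Ndufb7 to 1454 for Ubl5, and the median over all tested genes outside the members was 2828.5. Over 11586 genes transcript length and r with the score had rho = -0.0121, and the score itself had r = -0.31 with the length index. Whether transcript length bears on the r of these 5 genes was not tested.

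The genes closest to Atf4 outside the lists were Gprc5a (r = 0.67), Qdpr (0.60) and Tvp23b (0.59). Without library 12, where Atf4 was at 0, these were 0.35, 0.14 and 0.062, so the r of each rested largely on that library. Closest to Ddit3 were 4930539E08Rik (r = 0.57, rho = 0.38) and Gm4944 (0.55, rho = 0.52). Closest to Trib3 were Slc12a4 (0.56, rho = 0.49) and Cyb5d1 (0.54, rho = 0.59), and to Chac1 Thnsl1 (0.52, rho = 0.39) and Nbas (0.51, rho = 0.42). Gm4944 was above 0 in 50 libraries, Thnsl1 and Nbas in 24 each, Slc12a4 in 21 and Cyb5d1 in 12. 4930539E08Rik was above 0 in 18 and never exceeded 3.32 CPM. Each of these genes was picked for its high r among all tested genes outside the lists. For Ddit4, which never exceeded 2.34 CPM, the highest r picked in this way was 0.58.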
